A study of Mus musculus with 4 samples.

Results

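Interleukins, the chains of their receptors and the ligands of the TNF superfamily were examined in the colon of mice that drank water with maltodextrin or plain water. The genes were taken by name alone: symbols that begin with Il and a digit or with Tnfsf and a digit, together with Tnf, Lta and Ifng, with 1 matching symbol not reported here. This gave 93 genes of 30861 gene symbols on the arrays. By role, 51 were ligands, 39 were receptor chains and 3 were neither (Il18bp, a secreted binding protein for IL-18, and the transcripts Il1bos and Tnfsf13os, which overlap other genes). Ligands and receptors are described apart. The receptors of TNF superfamily ligands carry other symbols (Tnfrsf) and were read as a separate list.

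All samples were whole colon RNA from Balb/c mice, an inbred laboratory strain. The maltodextrin group (2 arrays, numbered 3 and 4) received 5% maltodextrin, a starch-derived polysaccharide food additive, in the drinking water over 45 days, and the control group (2 arrays, numbered 1 and 2) received water without it. Neither the age or sex of the mice nor whether each sample was a separate animal or a pool is given in the labels. The p-values therefore describe the spread among 4 samples, and that spread may be technical. The arrays were GeneChip Mouse Gene 2.0 ST, whose probe sets span the exons of a gene, and every level below is a log2 intensity.

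The number of arrays limits the precision: with 2 against 2, an exact permutation test (two-sided) cannot give a p below 0.333. Array medians lay between 5.20 and 5.35. The maltodextrin arrays correlated at 0.982 with each other over all probe sets, and the control arrays at 0.943, so the control samples were the more variable pair. Markers fit the labelled tissue, since all 7 epithelial and all 4 colonocyte markers had signal above the guide described next. Control 2 stood apart by pancreatic transcripts: 5 acinar markers summed to 185 and 396 intensity units on maltodextrin arrays 3 and 4, against 387 and 6571 on control arrays 1 and 2. Differences without control 2 are given below for the 9 members at the criterion and for some other named members. The 95th percentile of 1480 olfactory and vomeronasal receptor probe sets, genes that colon should hardly use, was 5.92, and this level serves as a guide to background signal. In whole tissue, fewer cells of a type and less RNA per cell cannot be told apart.

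Interleukins are secreted signals that immune, epithelial and stromal cells exchange, and most act on a small number of cells at low RNA levels. Their receptors are assembled from a private chain that recognises the ligand and a shared chain that signals, such as the common gamma chain, gp130 or IL-17RA, so that 1 shared chain serves several cytokines. TNF superfamily ligands are trimers, often tethered to the cell that makes them, and control lymphocyte survival, lymphoid tissue formation and cell death. In the gut, members of these families regulate the epithelial barrier, the lymphocytes that lie beneath it and the supply of IgA plasma cells.

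Receptor chains and ligands had different signal. The mean over the 4 arrays was above the guide for 23 of 39 receptors and for 14 of 51 ligands, so most ligand values lay within the range of genes that colon should hardly use. Colon kept on maltodextrin had higher signal for receptors of IL-7, IL-33, IL-17 family cytokines and IL-2, and lower signal for the receptor chain Il17rc and the ligand Tnfsf11. These calls used a nominal criterion, 1.5-fold or more in either direction and p under 0.05 by limma without adjustment. It was met by 6 receptors that were higher and 1 that was lower (15.4% and 2.56% of 39), and by 1 ligand in each direction (1.96% of 51). Over all 32202 named probe sets 8.51% were higher and 3.56% lower by the same criterion.

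The receptors' share was close to that of other probe sets with like signal. Among probe sets whose mean over the 4 arrays was above the guide, 17.4% were higher and 3.16% lower. Of the 23 receptors above it, 4 were higher (17.4%) and 1 was lower (4.35%), and of the 14 ligands above it, 1 was higher and 1 lower (7.14% each). The remaining 2 higher receptors, Il17rb and Il1rl1, had means below the guide because their control arrays lay below it. With Benjamini-Hochberg adjustment over all probe sets, limma called no member and no probe set at 0.05 (0.0%). Without adjustment, 11 members and 4698 probe sets had a p under 0.05. The methods' t-test, which is the equal-variance test that the deposited p-values follow, also called 0 after adjustment, with 14 members and 3481 probe sets under 0.05 without it. The smallest adjusted p of a member was 0.232 by limma.

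The middle of each list is read against all probe sets. The median difference, maltodextrin minus control on the log2 scale, was 0.19 for the receptors, -0.15 for the ligands and -0.04 for all probe sets. Of the receptors, 25 differences were above 0 and 14 below it, and of the ligands 16 were above and 35 below. Both maltodextrin arrays lay above both control arrays for 17 receptors (43.6%) and 8 ligands (15.7%), against 25.6% of all probe sets. Both lay below for 3 receptors (7.69%) and 17 ligands (33.3%), against 24.7%. Signal moved with these medians: above the guide the median difference was 0.42 for receptors, 0.32 for ligands and 0.21 for all probe sets. The negative ligand median therefore belonged to ligands with dim probe sets, as the plot of difference against signal shows.

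**Figure D1:**
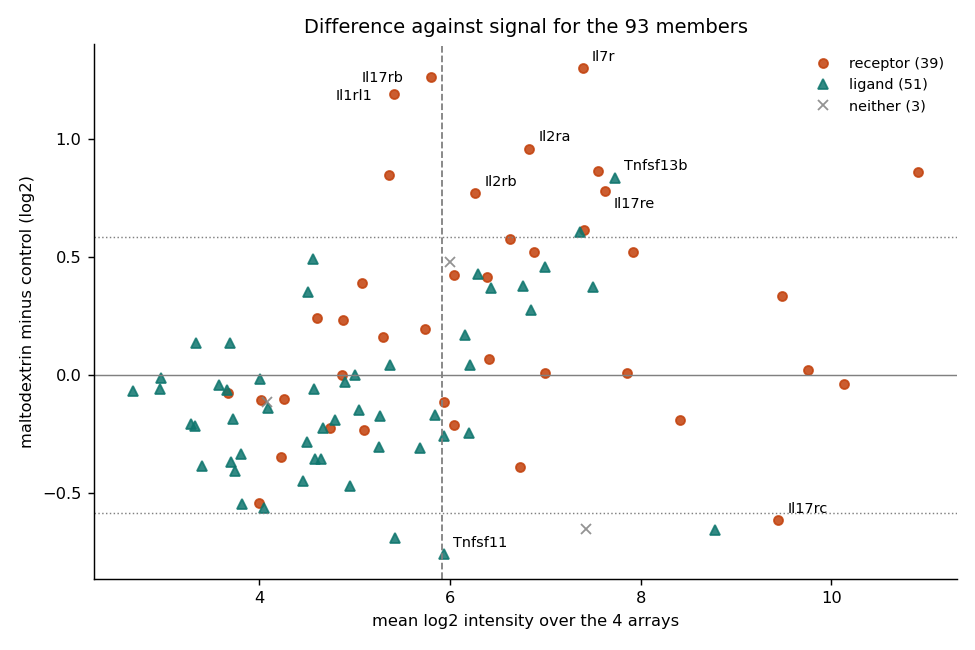
Difference between maltodextrin and control colon (log2, vertical) against the mean log2 intensity over the 4 arrays (horizontal) for each of the 93 members, with receptors as circles, ligands as triangles and the other 3 as crosses. The dashed line is the guide of 5.92 and the dotted lines mark a fold of 1.5; most ligands lie left of the guide with differences near or below 0.

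The IL-17 receptor family was the 1 receptor family in which members at the criterion lay in both directions. IL-17RA is the shared chain, which pairs with IL-17RC to bind IL-17A and IL-17F, with IL-17RE to bind IL-17C and with IL-17RB to bind IL-17B among others. Il17rb had log2 intensities of 6.25 and 6.60 in maltodextrin colon, against 5.33 and 4.99 in control colon. The difference was 1.27 with a standard error (SE) of 0.23 (adjusted p = 0.237, limma). Both maltodextrin values were above the guide and both control values below it, so the difference is against signal not above background and no fold is given.

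Il17re, the private chain for IL-17C, had 8.02 and 8.01 in maltodextrin colon, against 7.30 and 7.17 in control colon. The difference was 0.78 (SE 0.17, adjusted p = 0.251, limma). Il17rc, the partner for IL-17A and IL-17F, went the other way, with 9.10 and 9.17 in maltodextrin colon, against 9.84 and 9.66 in control colon. Its difference was -0.62 (SE 0.18, adjusted p = 0.290, limma), a fold of 1.53 that only just reached the criterion. The shared chain Il17ra had 7.76 and 7.97 in maltodextrin colon, against 7.98 and 7.73 in control colon, so the groups overlapped. Il17rd, a regulatory member of the family, had a difference of 0.42 (SE 0.21) and did not meet the criterion. The family median was 0.42 over 5 genes.

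Il17re and Il17rc are neighbours on the plus strand of chromosome 6 (GRCm38.p6), at chr6:113458699-113470758 and chr6:113471455-113483163, with 696 bases between them. The 250 bases before the start of each RefSeq entry are printed because the pair differed in direction. The Il17rc stretch (chr6:113471205-113471454) lies between the genes. That of Il17re is chr6:113458521-113458770, and its last part lies inside the gene's listed span. Capitals mark matches on either strand to the NF-kB core (GGG and CC with any 5 bases between them), TTCNNNGAA (the STAT core) or TGANTCA (AP-1). The Il17rb stretch is chr14:30008897-30009146, minus strand.
Il17re: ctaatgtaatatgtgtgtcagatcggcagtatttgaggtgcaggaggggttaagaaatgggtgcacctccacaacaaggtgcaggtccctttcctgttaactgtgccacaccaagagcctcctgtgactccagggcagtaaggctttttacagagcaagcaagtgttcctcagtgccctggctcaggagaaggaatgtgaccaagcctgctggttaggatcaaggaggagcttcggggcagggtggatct
Il17rc: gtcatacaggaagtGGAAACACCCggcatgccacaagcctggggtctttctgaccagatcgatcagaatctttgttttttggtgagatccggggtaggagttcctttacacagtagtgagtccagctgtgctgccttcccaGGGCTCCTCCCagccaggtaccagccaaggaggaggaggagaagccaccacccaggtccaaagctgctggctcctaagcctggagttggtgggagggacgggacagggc
Il17rb: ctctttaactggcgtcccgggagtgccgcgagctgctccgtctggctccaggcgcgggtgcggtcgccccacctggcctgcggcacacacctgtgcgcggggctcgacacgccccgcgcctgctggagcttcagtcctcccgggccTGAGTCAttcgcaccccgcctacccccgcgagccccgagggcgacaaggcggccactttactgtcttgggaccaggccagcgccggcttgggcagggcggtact
The Il17re stretch held no match to the 3 motifs, the Il17rc stretch held 3 matches to the NF-kB core, 2 of which overlap, and the Il17rb stretch held 1 AP-1 match. GC content was 52.4% for Il17re, 57.6% for Il17rc and 72.0% for Il17rb. A match is a run of letters, not a measured site.

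The group of common gamma and beta chain receptors, with Il13ra1 and Il13ra2 counted in it, gave 3 of the 6 higher receptors. It held 12 genes (25.0% higher), with a median difference of 0.52. Of the 10 with a mean above the guide 3 were higher (30.0%), against 17.4% of all such probe sets. Their median was 0.52, against 0.21 for all such probe sets. Il7r encodes the alpha chain for IL-7, which T cells and innate lymphoid cells need to survive, and which also serves TSLP. Il7r had 8.04 and 8.05 in maltodextrin colon, against 6.96 and 6.53 in control colon. The difference was 1.30 (SE 0.22, adjusted p = 0.232, limma), a fold of 2.46, with no overlap between groups.

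Il2ra encodes CD25, the chain that gives the IL-2 receptor its high affinity and marks regulatory and activated T cells. It had 7.32 and 7.31 in maltodextrin colon, against 6.61 and 6.09 in control colon, a difference of 0.96 (SE 0.24, adjusted p = 0.263, limma). Il2rb, the signalling chain shared by IL-2 and IL-15, had 6.73 and 6.58 in maltodextrin colon, against 6.04 and 5.72 in control colon. Its difference was 0.77 (SE 0.20, adjusted p = 0.275, limma). In each of Il7r, Il2ra and Il2rb both maltodextrin values were above both control values, and the control values were the farther apart.

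The shared gamma chain gene did not meet the criterion. Il2rg had 8.08 and 8.56 in maltodextrin colon, against 8.69 and 8.34 in control colon, and the groups overlapped. Il15ra, the chain that presents IL-15 and lies beside Il2ra on chromosome 2, had a difference of 0.52 (SE 0.21), and Il4ra, the signalling chain for IL-4 and IL-13, one of 0.52 (SE 0.29). Il13ra1, which binds IL-13 together with Il4ra, had 11.04 and 11.65 in maltodextrin colon, against 10.94 and 10.03 in control colon. Its difference of 0.86 (SE 0.40) exceeded 1.5-fold without meeting the p criterion, and it was 0.40 without control 2 and 1.32 without control 1. The Il4ra difference likewise was 0.16 without control 2 and 0.88 without control 1. Il5ra, the IL-5 receptor chain of eosinophils and B cells, had a like difference of 0.85 (SE 0.46), with 5.24 and 6.33 in maltodextrin colon, against 5.28 and 4.59 in control colon, so that the groups overlapped. It was 0.30 without maltodextrin 4 and 1.39 without maltodextrin 3. Il13ra2, a decoy receptor for IL-13, had a difference of -0.54 (SE 0.18) at low signal. Il3ra, Il9r and Il21r differed by between -0.39 and -0.11.

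The upstream stretches of Il7r (chr15:9529877-9530126, minus strand) and Il2ra (chr2:11642542-11642791) are printed because these 2 chains of 1 family were higher together. The last part of the Il7r stretch lies inside the gene's listed span, since its entry starts there.
Il7r: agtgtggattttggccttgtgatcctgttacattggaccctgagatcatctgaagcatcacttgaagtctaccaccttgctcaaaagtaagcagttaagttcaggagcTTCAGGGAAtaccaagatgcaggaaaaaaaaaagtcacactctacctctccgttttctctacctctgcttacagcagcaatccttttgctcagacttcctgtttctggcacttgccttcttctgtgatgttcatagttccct
Il2ra: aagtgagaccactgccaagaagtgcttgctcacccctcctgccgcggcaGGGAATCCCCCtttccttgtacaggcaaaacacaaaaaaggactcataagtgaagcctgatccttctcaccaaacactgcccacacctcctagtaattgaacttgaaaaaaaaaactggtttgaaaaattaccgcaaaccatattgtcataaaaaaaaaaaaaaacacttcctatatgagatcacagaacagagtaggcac
The Il7r stretch held 1 STAT core match and the Il2ra stretch 2 overlapping matches to the NF-kB core. Il7r lies at chr15:9506159-9529941, Il2ra at chr2:11642792-11693194 and Il2rb at chr15:78479256-78511621.

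The ligands of these receptors were mostly dim. Il7 had 5.06 and 5.72 in maltodextrin colon, against 5.24 and 5.45 in control colon, and Il2 had 2.81 and 3.05 in maltodextrin colon, against 3.29 and 2.68 in control colon. Il15, the epithelial and myeloid cytokine that sustains intraepithelial lymphocytes, was the 1 ligand of the 9 in this family above the guide. It had 7.26 and 7.19 in maltodextrin colon, against 6.56 and 6.97 in control colon, a difference of 0.46 (SE 0.22) that did not meet the criterion. Il13, which drives goblet cell and type 2 responses, had 4.81 and 5.12 in maltodextrin colon, against 5.38 and 4.85 in control colon. The family's differences ran from -0.55 to 0.46, with a median of -0.15.

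Markers of lymphocytes were read beside these receptors. Of 8 T cell markers, 2 (Cd3e and Cd3g) were higher at the nominal criterion (25.0%, against 8.51% of all probe sets) and 0 were lower. Their summed intensity was 1155 and 1289 in maltodextrin colon, against 904 and 767 in control colon. Cd3e, a chain of the T cell receptor complex, differed by 0.70, Cd3g by 0.98, Cd4 by 0.77, Cd8a by 0.44 and Cd8b1 by 0.28. The differences of Cd3d, Cd2 and Cd5 were -0.16, -0.22 and -0.13. Cd3d and Cd8a had means below the guide. Of 6 natural killer and cytotoxic markers 1 was higher (16.7%), with sums of 407 and 284 in maltodextrin colon, against 269 and 173 in control colon. Of 5 regulators of helper T and innate lymphoid cells, 0 met the criterion, with sums of 515 and 560 in maltodextrin colon, against 429 and 473 in control colon. Their differences were 0.11 for Gata3, 0.26 for Rora, 0.21 for Tbx21, 0.38 for Ahr and -0.03 for Foxp3. Foxp3, the defining factor of regulatory T cells, had 6.05 and 6.27 in maltodextrin colon, against 6.34 and 6.05 in control colon. In these lists 6 of 8, 1 of 6 and 3 of 5 markers had a mean above the guide. The part of cell numbers in the receptor differences was not tested.

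In the IL-1 receptor family Il1rl1 met the criterion. It encodes ST2, the receptor for the alarmin IL-33 on mast cells, type 2 innate lymphoid cells and regulatory T cells. Il1rl1 had 6.03 and 5.98 in maltodextrin colon, against 4.97 and 4.66 in control colon. The difference was 1.19 (SE 0.20, adjusted p = 0.232, limma). Only the maltodextrin values were above the guide, so again no fold is given. Its ligand Il33 had 6.56 and 6.46 in maltodextrin colon, against 5.98 and 6.18 in control colon. The Il33 groups did not overlap, but the difference of 0.43 (SE 0.18) was under 1.5-fold.

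Markers of mast cells and eosinophils, which can carry ST2, were read beside Il1rl1. Of 7 mast cell markers, 5 were higher (71.4%, against 8.51% of all probe sets and 17.4% of those above the guide). Their sums were 1952 and 860 in maltodextrin colon, against 272 and 261 in control colon, and the control sums came mostly from Kit. Cpa3, a mast cell protease, differed by 3.50 and Kit, the stem cell factor receptor, by 1.72. Fcer1a and Ms4a2, with differences of 0.81 and 0.14, did not meet the criterion. Of 4 measured eosinophil markers 2 (Siglec5 and Ccr3) were higher, and Epx and Prg2 had differences of -0.07 and -0.23, with sums of 171 and 194 in maltodextrin colon, against 122 and 95 in control colon. Of these lists 3 of 7 and 0 of 4 markers had a mean above the guide, and their part in the Il1rl1 difference was not tested.

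Il1rl1 (chr1:40404864-40465418) lies in a cluster of 6 family members on chromosome 1, in the order Il1r2, Il1r1, Il1rl2, Il1rl1, Il18r1 and Il18rap. The differences in that order were 0.16, 0.86, 0.19, 1.19, 0.39 and -0.00, so the neighbours of Il1rl1 did not all have differences of its size. Il1r1, the signalling receptor for IL-1 alpha and beta, had 8.08 and 7.90 in maltodextrin colon, against 6.60 and 7.65 in control colon. Its difference of 0.86 (SE 0.39) did not meet the p criterion, and it was 0.34 without control 1 and 1.38 without control 2. Il1rap, the accessory chain that ST2 and the IL-1 receptor share, differed by 0.42 (SE 0.17), with both maltodextrin values above both control values. The 2 synaptic members Il1rapl1 and Il1rapl2 were below the guide. The family median was 0.19 over 9 genes.

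**Figure D2:**
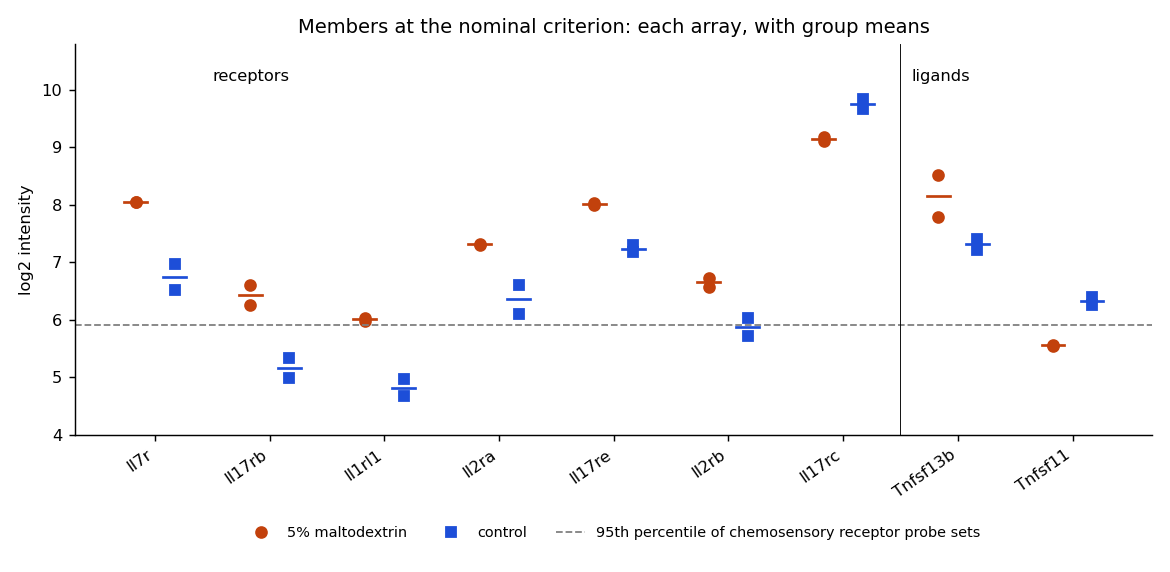
Log2 intensity (vertical) of each array for the 9 members at the nominal criterion, with maltodextrin arrays as circles left of control arrays as squares, short bars at the group means and the guide of 5.92 as a dashed line. In all 9, which were chosen by fold and p, the groups do not overlap. Over all probe sets 25.6% had both maltodextrin arrays above both control arrays and 24.7% had both below. Of the 9, 6 receptors and Tnfsf13b are higher in maltodextrin colon, and Il17rc and Tnfsf11 are lower.

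No member of the remaining receptor families met the criterion. The IL-10 receptor family had a median difference of 0.05 over 6 genes. Il10rb, the chain shared by IL-10 and IL-22, had 9.66 and 9.65 in maltodextrin colon, against 9.12 and 9.53 in control colon. Il10ra, the private chain for IL-10, had a difference of 0.58 (SE 0.22), just short of 1.5-fold, with both maltodextrin values above both control values. Il22ra1, through which IL-22 acts on epithelium, had 9.72 and 9.83 in maltodextrin colon, against 9.78 and 9.72 in control colon, a difference of 0.02 (SE 0.17). Il22ra2, a soluble inhibitor of IL-22, differed by 0.07 (SE 0.41), which was 0.62 without control 2 and -0.48 without control 1.

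Receptors of the IL-6 and IL-12 families had a median difference of 0.01 over 7 genes. Il6st encodes gp130, the signalling chain of the IL-6 group, and had 10.16 and 10.07 in maltodextrin colon, against 10.05 and 10.26 in control colon. Il6ra, the private chain for IL-6, had 7.53 and 7.89 in maltodextrin colon, against 6.83 and 7.36 in control colon. Its difference of 0.62 (SE 0.27) exceeded 1.5-fold without meeting the p criterion, and it was 0.88 without control 2 and 0.35 without control 1. The chains for IL-12 and IL-23 (Il12rb1, Il12rb2 and Il23r) were below the guide, with differences of 0.23, 0.24 and -0.11.

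Among the TNF superfamily ligands, 12 genes with a median difference of -0.16, the 2 ligands at the criterion had opposite directions. Tnfsf11 encodes RANKL, which stromal cells beneath the gut epithelium use to induce M cells and which osteoclasts need. Tnfsf11 had 5.55 and 5.57 in maltodextrin colon, against 6.25 and 6.39 in control colon. The difference was -0.76 (SE 0.17, adjusted p = 0.253, limma), and only the control values were above the guide. Its receptor gene Tnfrsf11a (RANK) had 8.61 and 9.09 in maltodextrin colon, against 9.35 and 9.47 in control colon, a difference of -0.56 (SE 0.23) that did not meet the criterion. Tnfrsf11b encodes osteoprotegerin, the soluble decoy for RANKL, and had 7.28 and 6.70 in maltodextrin colon, against 6.35 and 6.11 in control colon. The decoy was higher at the nominal criterion (0.76, SE 0.26, adjusted p = 0.321, limma), while its ligand was lower. The Tnfrsf11b difference was 0.47, under 1.5-fold, without maltodextrin 3 and 1.05 without maltodextrin 4.

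The stretch before Tnfsf11 (chr14:78308044-78308293, minus strand; gene at chr14:78277446-78308043) is printed as that of the lower ligand.
Tnfsf11: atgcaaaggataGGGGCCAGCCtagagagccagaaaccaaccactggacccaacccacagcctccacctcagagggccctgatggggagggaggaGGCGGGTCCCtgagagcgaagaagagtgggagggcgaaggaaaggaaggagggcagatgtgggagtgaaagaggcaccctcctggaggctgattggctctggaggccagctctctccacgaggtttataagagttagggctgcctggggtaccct
It held 2 matches to the NF-kB core, with a GC content of 60.4%.

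Tnfsf13b encodes BAFF, the survival factor of B cells and plasma cells, and lies at chr8:10006229-10036000. It had 7.78 and 8.52 in maltodextrin colon, against 7.40 and 7.22 in control colon. The difference was 0.84 (SE 0.30, adjusted p = 0.327, limma), a fold of 1.79, and the maltodextrin values were the farther apart. Without maltodextrin 4 it was 0.47, and without maltodextrin 3 it was 1.20. BAFF has 3 receptor genes. Tnfrsf17 (BCMA, the receptor of plasma cells) had 7.10 and 8.05 in maltodextrin colon, against 5.61 and 4.32 in control colon, and Tnfrsf13b (TACI) had 5.39 and 5.86 in maltodextrin colon, against 4.62 and 4.80 in control colon. Both were higher at the nominal criterion, by 2.61 (SE 0.55) and 0.92 (SE 0.24). All 4 Tnfrsf13b values and both control values of Tnfrsf17 lay below the guide, so these differences are against signal not above background. Tnfrsf13c, the BAFF receptor of mature B cells, had 7.13 and 8.02 in maltodextrin colon, against 8.27 and 7.70 in control colon, and the groups overlapped (difference -0.41, SE 0.38).

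Markers of plasma cells, B cells and myeloid cells were read beside the genes of the BAFF axis. Of 6 plasma cell markers 3 were higher, with sums of 7109 and 9783 in maltodextrin colon, against 3791 and 2821 in control colon. Of 6 B cell markers 0 were higher and 1 (Cr2) was lower (16.7%). The B cell sums overlapped between groups, with 1597 and 3446 in maltodextrin colon, against 4918 and 2949 in control colon. Of 8 macrophage and dendritic cell markers 7 were higher (87.5%). Their sums were 2447 and 3110 in maltodextrin colon, against 1354 and 1040 in control colon. All markers of these 3 lists had a mean above the guide, where 17.4% of all probe sets were higher and 3.16% lower. Their part in the Tnfsf13b difference was not tested.

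Other TNF superfamily ligands did not meet the criterion. Tnf itself had 6.07 and 6.09 in maltodextrin colon, against 6.40 and 6.25 in control colon. The groups did not overlap, and the difference of -0.25 (SE 0.17) was under 1.5-fold. Its neighbour on chromosome 17, Lta (lymphotoxin alpha), had 4.74 and 5.41 in maltodextrin colon, against 5.96 and 5.57 in control colon, a difference of -0.69 (SE 0.31). Tnfsf10 (TRAIL, a death ligand) had 7.02 and 6.96 in maltodextrin colon, against 7.60 and 5.83 in control colon. The control arrays were so far apart that its difference was -0.61 without control 2 and 1.16 without control 1. Tnfsf15 (TL1A) had 6.58 and 6.64 in maltodextrin colon, against 6.30 and 6.19 in control colon, a difference of 0.37 (SE 0.17). The read-through symbol Tnfsf12Tnfsf13, which joins TWEAK and APRIL, had 7.69 and 7.68 in maltodextrin colon, against 7.15 and 7.48 in control colon.

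No ligand of the IL-1 family met the criterion, and the median difference of its 10 genes was -0.12. Il18, which epithelium makes constitutively, had 8.11 and 8.80 in maltodextrin colon, against 8.64 and 9.57 in control colon. The groups overlapped, and the difference of -0.65 (SE 0.42) was -0.19 without control 2 and -1.12 without control 1. Il1b, the inflammatory cytokine of activated myeloid cells, had 5.96 and 5.64 in maltodextrin colon, against 5.94 and 6.18 in control colon. Il1rn, the antagonist of the IL-1 receptor, had 7.37 and 7.95 in maltodextrin colon, against 7.31 and 6.80 in control colon. Its groups did not overlap, and the difference of 0.61 (SE 0.30) exceeded 1.5-fold without meeting the p criterion, with 0.35 without control 2 and 0.32 without maltodextrin 4. Il18bp, which binds IL-18 in solution, had 7.12 and 7.10 in maltodextrin colon, against 8.49 and 7.03 in control colon, so control 1 alone was high. Its difference of -0.65 was -1.38 without control 2 and 0.08 without control 1.

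Effector cytokines of T cells and innate lymphoid cells lay below the guide. Il17a, an inducer of neutrophil recruitment and barrier genes, had 2.997 and 3.44 in maltodextrin colon, against 2.997 and 3.87 in control colon. Il22, which stimulates epithelial repair, had 2.86 and 2.42 in maltodextrin colon, against 2.74 and 2.68 in control colon, on a probe set that can match several transcripts. Ifng, the activator of macrophages, had 4.97 and 5.04 in maltodextrin colon, against 4.89 and 5.11 in control colon. The groups overlapped in all 3. Il17c, the epithelial ligand of IL-17RE, had 5.45 and 5.60 in maltodextrin colon, against 6.05 and 5.62 in control colon, a difference of -0.31 (SE 0.22).

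The regulatory and acute-phase cytokines were also dim. Il10, which restrains mucosal inflammation, had 3.69 and 3.57 in maltodextrin colon, against 3.88 and 3.50 in control colon. Il6, an inducer of the acute-phase response, had 2.78 and 3.14 in maltodextrin colon, against 2.80 and 3.14 in control colon. All 5 ligands of the IL-10 family and all 7 of the IL-6 and IL-12 families had differences below 0, with family medians of -0.22 and -0.17, and none of the 12 had a mean above the guide. The 1 of them with an unadjusted p under 0.05, Il20, had a difference of -0.56 (SE 0.18), short of 1.5-fold. Dim probe sets leaned below 0 in general. Of all 32202 probe sets 17401 had a difference below 0, but of the 13342 above the guide only 4333 did. The IL-17 ligands had a median of -0.21 over 5 genes. Of the remaining ligands, Il34, an alternative ligand of the CSF1 receptor, had 6.75 and 7.16 in maltodextrin colon, against 6.38 and 6.78 in control colon.

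**Figure D3:**
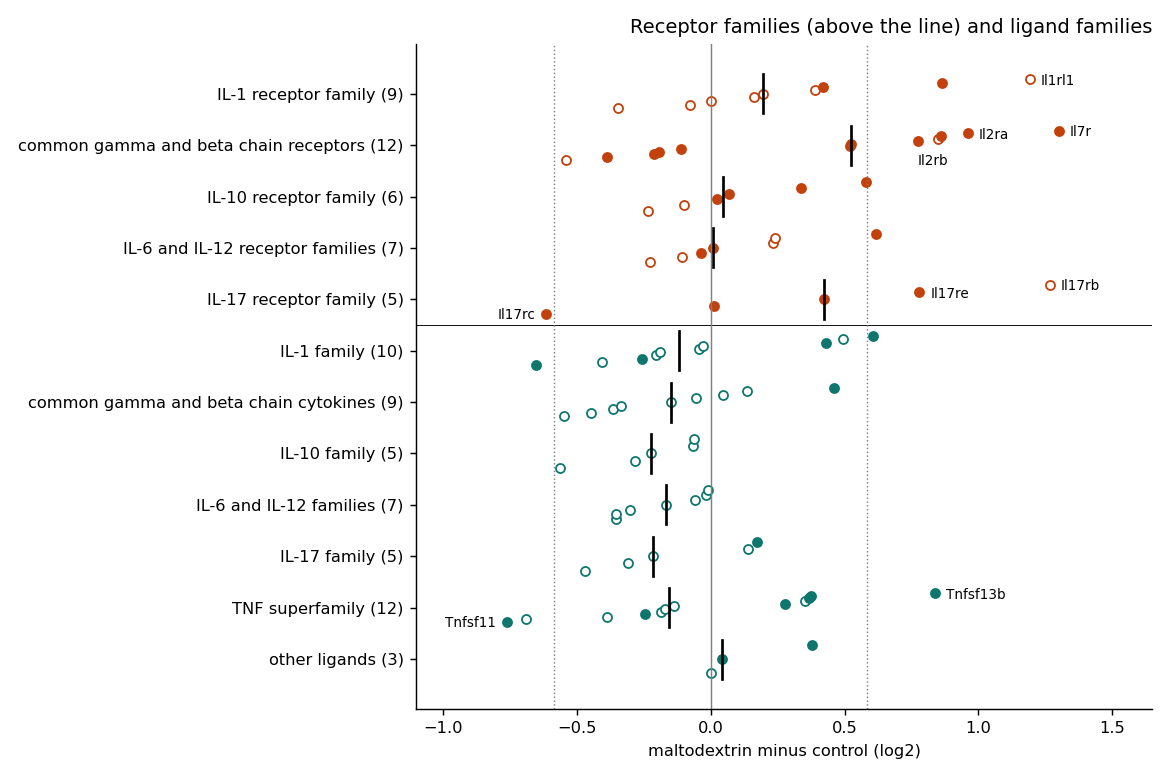
Difference between maltodextrin and control colon (log2, horizontal) for each ligand and receptor in 5 receptor families (upper rows) and 7 ligand groups (lower rows), with the number of genes in parentheses, black bars at the family medians and dotted lines at a fold of 1.5. Filled circles are genes with a mean above the guide; all ligands of the IL-10 family lie left of 0 with open circles.

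Genes of the same pathways under other names were read from the same fit. Of 28 TNF receptor superfamily genes, 4 were higher (14.3%, against 8.51% of all probe sets) and 0 lower, with a median of 0.03. Of the 19 with a mean above the guide 3 were higher (15.8%), near the 17.4% of all such probe sets. Besides Tnfrsf17, Tnfrsf13b and Tnfrsf11b the 4 higher genes included Tnfrsf23, a decoy receptor for TRAIL in mice. It had 8.65 and 6.48 in maltodextrin colon, against 5.42 and 5.10 in control colon. Of 5 TNF superfamily ligands with other symbols, 0 were higher and 2 lower (40.0%, against 3.56% of all probe sets). Their median was -0.25, and 1 of the 5 had a mean above the guide. Ltb, the membrane partner of lymphotoxin alpha, had 6.81 and 7.61 in maltodextrin colon, against 8.03 and 8.81 in control colon. Cd40lg, the CD40 ligand of helper T cells, had 3.59 and 3.75 in maltodextrin colon, against 4.64 and 4.18 in control colon, all below the guide.

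Of 22 cytokines and receptor chains with other symbols, 3 were higher (13.6%) and 0 lower, with a median of 0.25. Of the 13 with a mean above the guide 3 were higher (23.1%), against 17.4% of all such probe sets. Osmr, the oncostatin M receptor that pairs with gp130, had 8.47 and 8.50 in maltodextrin colon, against 7.65 and 7.55 in control colon. Its difference was 0.88 (SE 0.17, adjusted p = 0.245, limma). Csf1r, the receptor of CSF1 and IL-34 on macrophages, differed by 0.96 (SE 0.26), and Sigirr, an inhibitory member of the IL-1 receptor family, by 0.80 (SE 0.17).

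Signalling genes had medians near 0, and their shares are read against 8.51% higher over all probe sets and 17.4% above the guide. Of 19 JAK, STAT and SOCS genes, 1 was higher (5.26%) and 0 lower, with a median of 0.01. This was Socs2, a feedback inhibitor of cytokine signalling, which had 8.31 and 7.96 in maltodextrin colon, against 5.98 and 7.05 in control colon. Of 30 genes of the MyD88, TRAF and NF-kB route, 1 was higher (3.33%) and 0 lower, again with a median of 0.01. This was Irak3, a brake on signalling from IL-1 and toll-like receptors, which had 7.42 and 7.09 in maltodextrin colon, against 5.97 and 6.34 in control colon.

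Markers of further cell types are given as values, with no part in the member differences tested. Of 4 goblet cell markers, all with a mean above the guide, 3 were higher (75.0%, against 17.4% of all such probe sets). The goblet cell sums were 27615 and 25539 in maltodextrin colon, against 20445 and 15396 in control colon. Epithelial markers summed to 21675 and 18913 in maltodextrin colon, against 24398 and 21957 in control colon, and colonocyte markers to 21057 and 17974 in maltodextrin colon, against 20382 and 20615 in control colon. None of these 11 met the criterion. Of 5 neutrophil markers 1 (Retnlg, difference 3.22) was higher (20.0%, against 8.51% of all probe sets). The neutrophil sums were 975 and 2345 in maltodextrin colon, against 4234 and 1899 in control colon. These sums came mostly from Ly6g, the 1 neutrophil marker with a mean above the guide. Ly6g had 9.62 and 11.10 in maltodextrin colon, against 12.02 and 10.85 in control colon. Of 5 fibroblast markers, all with a mean above the guide, 1 (Lum) was higher (20.0%, near the 17.4% of all such probe sets). The fibroblast sums were 6666 and 6645 in maltodextrin colon, against 5465 and 5546 in control colon. The sums came mostly from Dcn, and the list was split. Differences were 0.91 for Lum, 0.54 for Dcn and 0.41 for Pdgfra, but -0.85 for Col1a1 and -0.44 for Col1a2. Smooth muscle, endothelial and tuft cell markers had 0 genes at the criterion. Smooth muscle markers summed to 18561 and 14404 in maltodextrin colon, against 20595 and 23026 in control colon. Endothelial markers summed to 891 and 906 in maltodextrin colon, against 852 and 1092 in control colon, and tuft cell markers to 252 and 299 in maltodextrin colon, against 237 and 231 in control colon.

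The 9 calls were repeated with each array left out in turn. Il7r, Il17rb and Il1rl1 met the criterion in all 4 such fits, with differences of 1.08 to 1.52, 1.09 to 1.44 and 1.04 to 1.34. Without control 2, the array with pancreatic transcripts, the differences were 1.08 for Il7r, 1.10 for Il17rb and 1.04 for Il1rl1. They were 0.70 for Il2ra, 0.72 for Il17re and 0.62 for Il2rb, and these calls held there and without control 1, but were lost in both fits that left out a maltodextrin array. The differences in those 2 fits, without maltodextrin 3 first, were 0.96 and 0.97 for Il2ra, 0.77 and 0.79 for Il17re and 0.70 and 0.85 for Il2rb, so the p and not the size moved. The Il17rc call held without control 2 at -0.70 and was lost in the other 3 fits, where the difference was between -0.65 and -0.53. Without control 2 Tnfsf11 met the criterion at -0.69, whereas Tnfsf13b (0.75) did not. Tnfsf13b met it only without maltodextrin 3 among the 4 fits, and Tnfsf11 only in the 2 fits that left out a control array, although its difference was -0.75 without maltodextrin 3 and -0.77 without maltodextrin 4. The counts moved with the array left out. Without control 2, 9 receptors were higher and 2 lower, and 2 ligands were higher and 6 lower, where 9.29% of all probe sets were higher and 12.1% lower. Without control 1, 10 receptors and 5 ligands met the criterion, where 12% of all probe sets were higher and 7.79% lower. Without maltodextrin 3 it was met by 4 receptors and 1 ligand, where 3.02% of all probe sets were higher and 0.978% lower. Without maltodextrin 4 it was met by 3 receptors and 1 ligand, where 4.44% were higher and 1.61% lower.

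**Figure D4:**
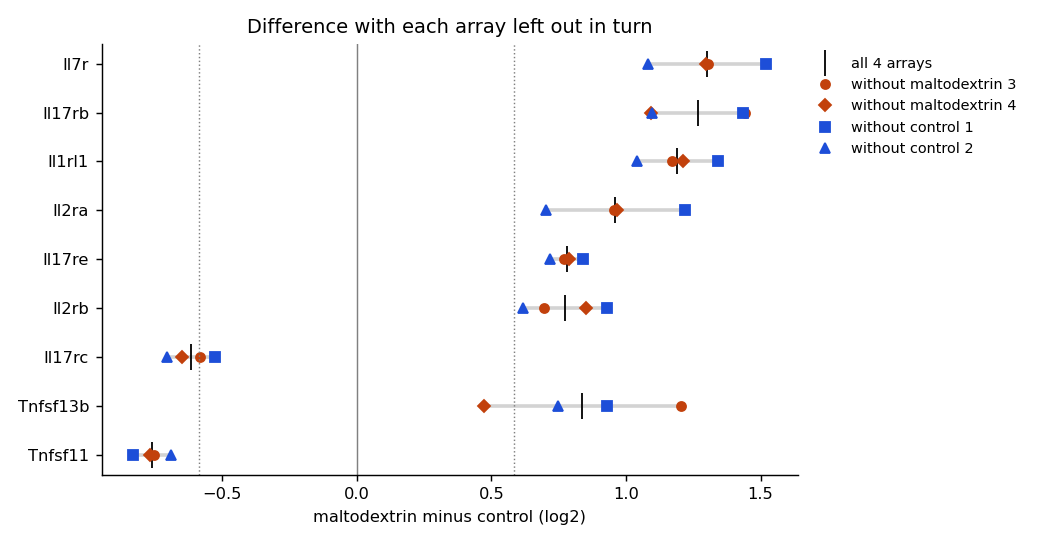
Difference between maltodextrin and control colon (log2, horizontal) for the 9 members at the nominal criterion (rows), with all 4 arrays (black tick) and with each array left out (symbols in the legend), and dotted lines at a fold of 1.5. No point can change sign here, because the groups of all 9 do not overlap. Tnfsf13b spans 0.47 to 1.20 and Il17re 0.72 to 0.84.

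In the authors' deposited table, 5 receptors had a fold of at least 1.5 with p under 0.05 in the higher direction and 1 in the lower, with 0 ligands higher and 1 lower. By the methods' t-test 3.92% of all probe sets were higher and 1.1% lower at these limits. The authors' deposited table gives p = 0.0271 for Il7r, with a ratio of 2.46, p = 0.0351 for Il17rb and p = 0.0162 for Il1rl1, by the methods' t-test. Il2ra (p = 0.0652) and Tnfsf13b (p = 0.156) are above 0.05 in the authors' deposited table, and the other 7 are below it.

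Upstream sequence was available for 40 ligands and 32 receptors, and the 250 bases before each start were searched for the same 3 motifs. The NF-kB core was in 47.5% of ligand and 46.9% of receptor genes, against 48.7% of all 27025 genes with an entry. The STAT core was in 5 ligands (12.5%) and 5 receptors (15.6%), against 8.13% of all genes. The AP-1 motif was in 10 ligands (25.0%) and 6 receptors (18.8%), against 7.82% of all genes. Ligands with it included Il1a, Il1rn, Il6, Il17a and Tnfsf13b, and receptors with it were Il5ra, Il13ra2, Il15ra, Il17rb, Il20ra and Il22ra1. Of the 5 higher receptors with an entry, 1 held each of the 3 motifs, a different gene for each.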

How the data were processed

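The deposited value table holds log2 intensities of 41345 probe sets on 4 arrays. The submitters' processing notes name Partek 6.6. How background was corrected and probes were normalized and summarized is not given in the sources used here, so the differences depend on steps that are not known. The authors' deposited table of comparisons gives, per the file headers, a ratio (fold of treated over control), a signed fold score and a p-value for each row. Against the value table its log2 ratios were off by no more than 8.9e-05, and its p-values lay within 0.00064 of an equal-variance test.

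The 32202 probe sets with a symbol were fitted with limma 3.58.1 in R 4.3.3 (lmFit and eBayes, maltodextrin minus control, two-sided, Benjamini-Hochberg over all of them), with 2 residual and 2.62 prior degrees of freedom. The script was tested on simulated data. Each gene was represented by its probe set with the highest mean. Samples were grouped by their labels. The members, lists and tests were chosen with earlier results of these data known.

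Members named with values were those at the nominal criterion, the 8 brightest ligands and 8 brightest receptors, 10 well-known cytokines (Tnf, Ifng, Il1b, Il6, Il10, Il17a, Il22, Il13, Il18 and Il33) and members of at least 1.5-fold whose groups did not overlap. Up to 3 genes at the criterion were named per pathway list. Other members and the receptors of RANKL and BAFF were named as partners or neighbours of these. Alternatives were a filter at a mean of 5, renormalization, other probe set choices, the methods' t-test, a fold of 2 and each array left out. Positions and upstream sequence are from RefSeq (GRCm38.p6), which placed all 93 members, 1 of them through a synonym. A further marker gene is not reported here.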

Additional observations from a re-analysis of the deposited data

How the results depend on the processing

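No paired analysis was possible because the sample numbers run from 1 to 4 through both groups, so none is shared. Among probe sets with a mean of 5 or more, the ligand median was 0.022 and the receptor median 0.40, and with quantile normalization applied again the ligand median was -0.026. The methods' t-test gave 1 ligand and 1615 probe sets at the nominal criterion, against 2 and 3887 with limma. A fold of at least 2 left 0 ligands, 3 receptors (Il7r, Il17rb and Il1rl1) and 1394 probe sets. With 1 array left out in turn, 1 to 8 ligands, 3 to 11 receptors and 1288 to 6894 probe sets met the criterion, and the ligand median ran from -0.19 to -0.064 and the receptor median from 0.16 to 0.32. These fits assume that a lone array varies like the other group. After adjustment 905 probe sets (with Il1rl1 and Il7r among them) passed 0.05 without control 1 and 671 (0 members) without control 2, where 2991 higher and 3903 lower probe sets met the nominal criterion, and 0 in both fits without a maltodextrin array. Centring arrays on their medians gave 3445 higher and 885 lower probe sets, against 2739 and 1148, lost the call of Il17rc (-0.55) and added Il10ra, Il13ra1 and Il15ra. The other lost calls were Tnfsf13b (quantile normalization, t-test) and Il2ra (t-test). Small differences changed sign. With quantile normalization again Il10 was 0.11, Il6 0.068, Il22ra1 -0.14 and Il17ra -0.18, and with centring Il10 was 0.0045, Il6 0.057 and Il6st 0.032. Leave-one-out ranges were -0.25 to 0.13 for Il10, -0.29 to 0.15 for Il22, -0.65 to 0.22 for Il17a, -0.19 to 0.17 for Il6, -0.61 to 1.16 for Tnfsf10, -0.41 to 0.12 for Il13, -0.11 to 0.11 for Ifng, -0.035 to 0.081 for Il22ra1, -0.11 to 0.13 for Il17ra, -0.14 to 0.069 for Il6st and -0.43 to 0.045 for Il2rg. The cause was not tested. Signal near background limits the 54 members with a mean below the guide.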
